A study of Mus musculus with 18 samples.

Results

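The 9 genes Nebl, Slco3a1, Tspan31, Rmnd5b, Aqp9, Nrp1, Parm1, Jaml and Camk4, were followed in natural killer (NK) cells that had lost Eomes. They were 9 of the 41388 genes listed in every library, and they were taken because their RNA was high in Eomes-deleted cells at 1 or more stages while they stood outside the lists of type 1 innate lymphoid cell (ILC1) genes. The genes were thus chosen by their KO against WT counts. Those values are given below as a description and support nothing. The calls among them are counted in the main fit and in other fits, beside the calls over all genes. The changes between stages within control cells were not used to choose them and were tested. They rest on the same control libraries, so these tests are not independent of the choice.

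RNA of splenic NK cells from C57BL/6 mice aged 8 to 12 weeks was sequenced in 18 libraries, 3 for each of 6 groups. KO cells came from mice with an Ncr1-iCreERT2 allele (KI/WT), the Rosa26YFPLSL reporter and Eomesfl/fl alleles. Tamoxifen was given for 3 days, so Cre acted in cells that express Ncr1, the gene of the NKp46 receptor. WT cells came from mice labelled wild type, and neither their Cre status nor whether they received tamoxifen is clear from the labels, so effects of Cre, of the drug and of the deletion cannot be told apart. Cells of both genotypes were sorted into 3 stages, from least to most mature: CD27+CD11b- cells made up stage II, cells with both proteins stage III, and CD27-CD11b+ cells stage IV. Spleens were pooled in 3 experiments, and the labels do not say which library came from which, so the errors below measure the spread between libraries.

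Eomes is a T-box transcription factor that, with the related T-bet, directs the development of NK cells, and conventional NK cells keep it while ILC1 largely lack it. As mouse NK cells mature they first display CD27, then CD27 with CD11b, and last CD11b alone, and they lose proliferative capacity and gain effector functions on the way. The 9 genes belong to no single pathway. They encode transport proteins of the membrane (Aqp9, Slco3a1), surface receptors and other membrane proteins (Nrp1, Jaml, Tspan31, Parm1), an actin-binding protein (Nebl), a ubiquitin ligase subunit (Rmnd5b) and a calcium-dependent kinase (Camk4).

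Levels are CPM, a library's count of a gene rescaled to a common total, after scaling by the trimmed mean of M values (TMM), given for replicates 1, 2 and 3 in that order. Log2 fold changes are those of edgeR's model with their standard errors (SE). Eomes RNA was lower in KO cells at each stage, with 51.4, 71.1 and 57.1 CPM in KO stage II libraries, against 169, 208 and 209 CPM in WT stage II libraries. Its log2 fold change in KO was -1.70 ± 0.15 at stage II, -0.69 ± 0.15 at stage III and -1.28 ± 0.15 at stage IV (edgeR adjusted p = 1.1e-05, 0.0143 and 0.000274), so part of the Eomes RNA remained. Total counts ran from 18684350 to 28365837 per library. KO stage III replicates 1 and 3 stood apart: only 14824 and 16536 genes had a count in them, while replicate 2 of that group reached 21454, and Itgam, which encodes CD11b, had 105 and 107 CPM there, against 293 CPM in replicate 2 and 396 to 454 CPM in WT stage III libraries. Xist was at or under 0.64 CPM in WT replicates 2 and 3 of every stage and at or above 5.66 CPM in the remaining 12, so the sex of the pooled mice followed genotype in part. In all 6 groups, replicate 1 had the least RNA of 15 immediate early and stress response genes, added up (1716 to 2549 CPM, against 3233 to 6796 CPM in replicates 2 and 3), and the labels write the titles of replicate 1 in another form. Values without KO stage III replicates 1 and 3 and with an Xist covariate are given where they moved a value beyond the replicate spread, and calls with the replicate number as a block are counted below. The part of the immediate early genes in the values was not tested.

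RefSeq promoters on build GRCm38.p6 were found for 7 of the 9 genes, with 11 start sites, and the 250 bases before each were searched on both strands. The T-box motif GGTGTGA was in 0 of the 11 windows, against 3.33% of the 32851 windows of all genes. Its shorter core GGTGTG was in 2 of the 11 (16.28% of all windows), both at start sites of Nebl. No GENCODE M21 transcript began in any Nebl window, with or without a match. Both windows with the core end in AG, with 15 and 13 pyrimidines in the 20 bases before it, as a splice acceptor does. Windows that do not end in AG had 4 to 17 pyrimidines at those positions. Without the 2 windows the core was in 0 of 9, while the share of all windows was not filtered for such ends. The RUNX core ACCACA, the letters that RUNX transcription factors recognise, was in 3 of the 11 (14.05% of all windows): those of Jaml and Rmnd5b and 1 of the Nebl windows that end in AG. The windows of Jaml and Rmnd5b are shown for their match, and that of Aqp9 for the largest difference between KO and WT cells with no match to any of these motifs. Capitals mark the RUNX core or its reverse complement TGTGGT. Jaml lies on the plus strand and its window is chr9:45078933-45079182. Rmnd5b lies on the minus strand and its window is chr11:51635897-51636146. Aqp9 lies on the minus strand and its window is chr9:71163290-71163539.
Jaml: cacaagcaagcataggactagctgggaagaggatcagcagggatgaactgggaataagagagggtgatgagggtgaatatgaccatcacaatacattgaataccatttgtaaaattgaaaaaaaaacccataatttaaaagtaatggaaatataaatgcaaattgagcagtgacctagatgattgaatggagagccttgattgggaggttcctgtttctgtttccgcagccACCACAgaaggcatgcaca
Rmnd5b: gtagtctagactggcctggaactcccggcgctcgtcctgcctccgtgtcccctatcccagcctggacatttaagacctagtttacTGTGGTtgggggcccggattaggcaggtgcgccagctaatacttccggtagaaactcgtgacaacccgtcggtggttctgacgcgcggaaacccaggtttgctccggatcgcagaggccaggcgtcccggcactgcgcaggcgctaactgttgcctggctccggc
Aqp9: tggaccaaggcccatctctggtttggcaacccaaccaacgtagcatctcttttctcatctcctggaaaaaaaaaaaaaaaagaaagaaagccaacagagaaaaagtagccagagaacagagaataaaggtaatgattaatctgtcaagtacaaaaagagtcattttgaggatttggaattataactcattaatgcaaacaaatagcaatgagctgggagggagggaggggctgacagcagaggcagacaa
A match to so few letters is a description of the sequence and no evidence of binding, and a window without a match says only that these letters are not in it.

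All 9 genes passed the low-count filter. Every KO library was above every WT library in 25 of the 27 pairings of a gene with a stage; the exceptions were Parm1 at stage II and Camk4 at stage IV. Over the 14156 genes tested, that held for 9.10% of the pairings of a gene with a stage. An adjusted p under 0.05 with a higher level in KO was reached by 5 of the 9 genes at stage II, 8 at stage III and 7 at stage IV, against 0.466%, 5.16% and 0.240% of all genes tested. Since the genes were taken for this direction, nothing is read from those counts. They also depended on the fit. With only the libraries compared they were 7, 1 and 5, and at stage III Nebl alone then passed. Of all 14156 genes tested, 150, 9 and 40 were called higher in that fit. With the Xist covariate they were 4, 8 and 5, against 42, 633 and 27 of all genes tested. Tspan31 and Camk4 then did not pass at stage II, nor did Rmnd5b, Jaml and Parm1 at stage IV, while Aqp9 passed at both stages. Leaving out single libraries gave 2 to 7 calls at stage II, 7 to 9 at stage III and 3 to 8 at stage IV. Of all genes tested, 23 to 134, 85 to 2644 and 16 to 52 were called higher in those fits. The replicate block left the counts at 5, 8 and 7, against 96, 1052 and 42 of all genes tested. The median log2 fold change of the 9 genes was 0.88 at stage II, 1.78 at stage III and 1.67 at stage IV, and the median of all genes tested was -0.0063, 0.016 and 0.016.

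**Figure D1:**
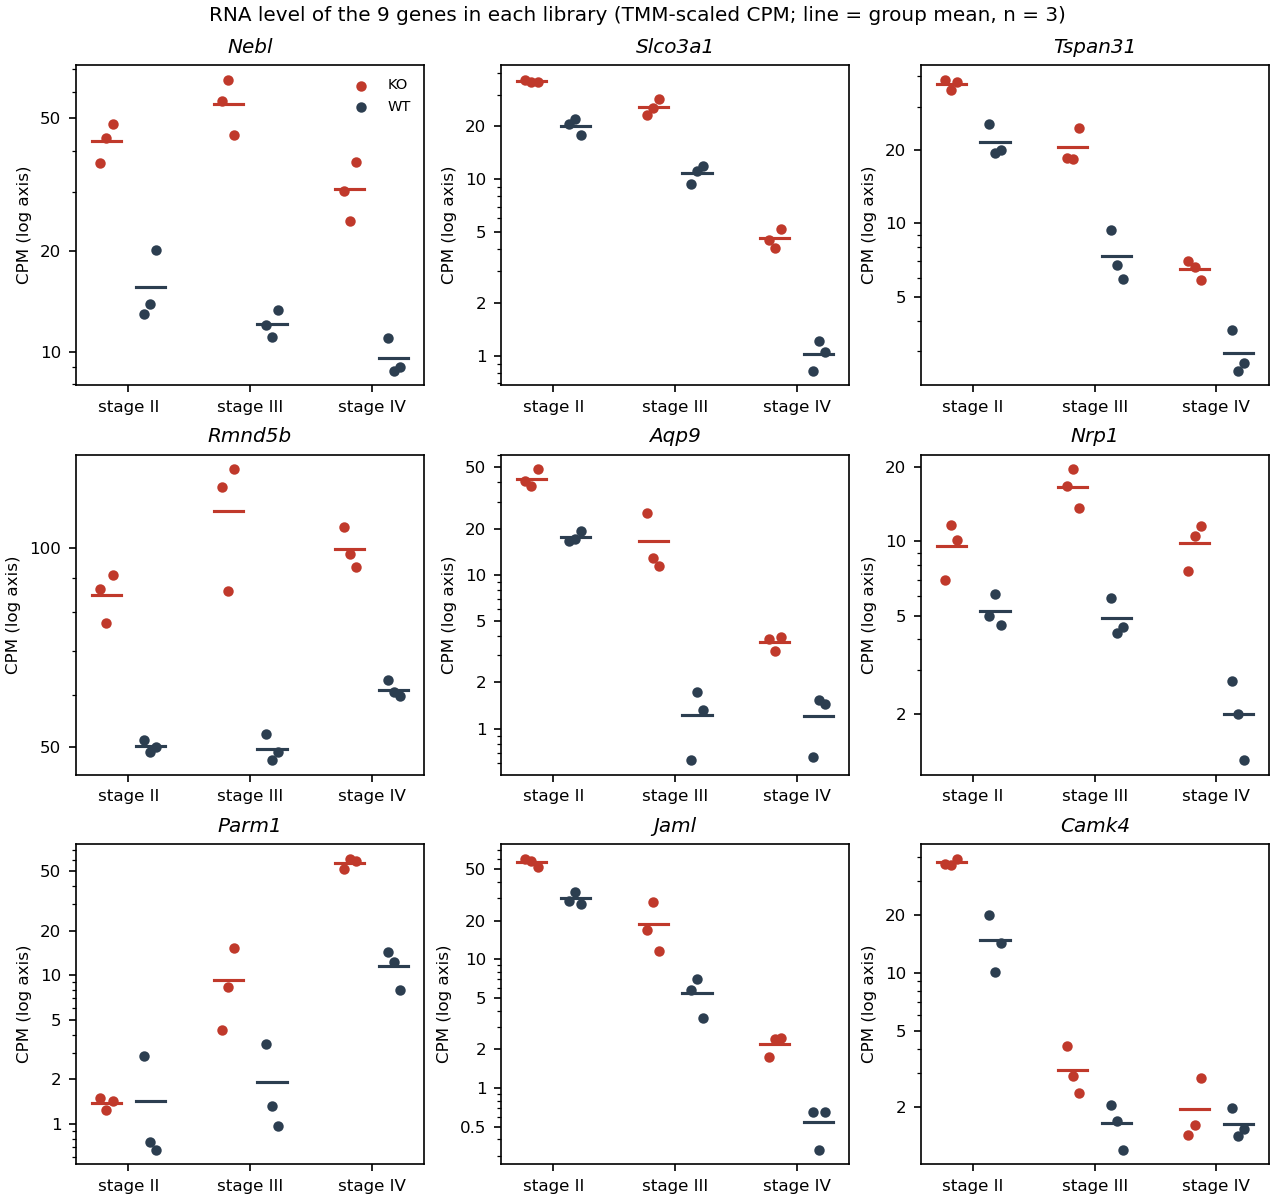
RNA level of each of the 9 genes in every library, in TMM-scaled CPM on a log axis, with KO (red) left of WT (dark) at stages II, III and IV; points are libraries and lines are means of 3. KO points lie above all WT points except for Parm1 at stage II and Camk4 at stage IV, and in both genotypes most genes decline toward stage IV while Parm1 climbs.

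Aqp9 encodes an aquaglyceroporin, a channel that passes water, glycerol and other small solutes. It had 40.6, 37.9 and 48.7 CPM in KO stage II libraries, against 16.7, 17.1 and 19.3 CPM in WT stage II libraries. At stage III it had 25.4, 13.0 and 11.5 CPM in KO libraries, against 0.625, 1.73 and 1.32 CPM in WT libraries. At stage IV it had 3.86, 3.19 and 3.97 CPM in KO libraries, against 0.657, 1.54 and 1.45 CPM in WT libraries. The genotypes did not overlap at any stage, and KO stage III cells were near the level of WT stage II cells, with overlapping ranges. The log2 fold change in KO was 1.26 ± 0.31 at stage II, 3.74 ± 0.36 at stage III and 1.60 ± 0.36 at stage IV. It was larger at stage III than at stage II by 2.48 ± 0.46 (SE), a difference given without a test. The WT side of stage III was thin, with 14 to 48 counts per library, and the KO side held 224 to 446. Without KO stage III replicates 1 and 3 the stage III value was 3.37, and with the Xist covariate the stage II value was 1.53. Aqp9 is also abundant in granulocytes, so the neutrophil list is given here: 13 of its 13 markers were matched, and they summed to 17.1 to 31.9 CPM in KO stage II libraries, against 5.89 to 11.8 CPM in WT stage II libraries. Mmp9 carried most of that sum (23.3 CPM in KO stage II and 6.11 CPM in WT stage II, means of 3). Every other marker averaged at or under 0.61 CPM in both groups. Retnlg, Camp, Ltf, Mmp8 and Ly6g had no count in KO stage II libraries. S100a8 averaged 0.0517 CPM in KO stage II and 0.213 CPM in WT stage II, and Mpo 0.305 and 0.167 CPM. The median log2 fold change of the 7 tested markers was -1.93 at stage II, with Mmp9 at 1.93 and Mpo at 0.84. The part of granulocytes in the Aqp9 values was not tested. At stage III the list summed to 0.0569 to 8.40 CPM in KO libraries and 0.827 to 7.98 CPM in WT libraries.

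Slco3a1 encodes an organic anion transporter of the solute carrier organic anion family, known to carry prostaglandins and thyroid hormone. It had 36.7, 35.9 and 35.5 CPM in KO stage II libraries, against 20.6, 22.0 and 17.9 CPM in WT stage II libraries. Stage III values were 23.3, 25.4 and 28.5 CPM in KO libraries, against 9.42, 11.2 and 11.9 CPM in WT libraries. Stage IV values were 4.54, 4.08 and 5.23 CPM in KO libraries, against 0.821, 1.21 and 1.05 CPM in WT libraries. None of the 6 groups overlapped its neighbour in the order of levels, which ran KO stage II, KO stage III, WT stage II, WT stage III, KO stage IV and WT stage IV. The log2 fold change in KO widened with maturation: 0.84 ± 0.15 at stage II, 1.25 ± 0.15 at stage III and 2.17 ± 0.18 at stage IV. Its coefficient of variation was the lowest of the 9 genes in KO stage II libraries (1.78%) and in KO stage III libraries (10.3%).

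Nrp1 encodes neuropilin-1, a co-receptor for class 3 semaphorins and for vascular endothelial growth factor that also marks thymus-derived regulatory T cells in mice. It had 6.99, 11.7 and 10.2 CPM in KO stage II libraries, against 4.97, 6.13 and 4.60 CPM in WT stage II libraries. At stage III it had 16.7, 19.6 and 13.7 CPM in KO libraries, against 5.89, 4.24 and 4.48 CPM in WT libraries. At stage IV it had 7.56, 10.5 and 11.5 CPM in KO libraries, against 2.71, 2.0 and 1.30 CPM in WT libraries. The groups came closest at stage II, where KO replicate 1 was only just above WT replicate 2. The log2 fold change in KO was 0.88 ± 0.27 at stage II, 1.78 ± 0.27 at stage III and 2.29 ± 0.28 at stage IV. KO stage II and KO stage IV had almost the same mean (9.61 ± 2.39 and 9.85 ± 2.05 CPM, SD, n = 3 each), and KO stage III lay above both with no overlap.

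Jaml encodes junctional adhesion molecule-like, an immunoglobulin superfamily protein of leukocytes that binds the coxsackievirus and adenovirus receptor on epithelial cells. It had 60.2, 58.2 and 51.6 CPM in KO stage II libraries, against 28.6, 33.4 and 27.1 CPM in WT stage II libraries. In stage III the levels were 17.0, 27.7 and 11.5 CPM in KO libraries, against 5.80, 7.08 and 3.50 CPM in WT libraries. In stage IV the levels were 1.74, 2.43 and 2.44 CPM in KO libraries, against 0.657, 0.334 and 0.648 CPM in WT libraries. The genotypes did not overlap, and within stage III replicate 2 was highest and replicate 3 lowest in both. Its log2 fold change in KO was 0.93 ± 0.28 at stage II, 1.78 ± 0.29 at stage III and 2.02 ± 0.38 at stage IV. Stage IV rests on 33 to 62 counts per KO library and 8 to 16 per WT library. Without KO stage III replicates 1 and 3 the stage III value was 2.33.

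Tspan31 encodes a tetraspanin, a protein with 4 membrane-spanning segments of a family that organises other surface proteins. It had 38.6, 35.3 and 37.9 CPM in KO stage II libraries, against 25.4, 19.3 and 20.1 CPM in WT stage II libraries. At stage III it had 18.6, 18.4 and 24.5 CPM in KO libraries, against 9.42, 6.76 and 5.91 CPM in WT libraries. At stage IV it had 7.03, 6.63 and 5.86 CPM in KO libraries, against 3.65, 2.50 and 2.69 CPM in WT libraries. KO cells of one stage overlapped WT cells of the stage before: KO stage III with WT stage II, and KO stage IV with WT stage III. The log2 fold change in KO was 0.79 ± 0.19 at stage II, 1.48 ± 0.20 at stage III and 1.14 ± 0.21 at stage IV. With the Xist covariate the stage II value was 0.54. Tspan31 shares 604 of its 1516 exon bases (39.8%) with Cdk4, a cell cycle kinase gene on the opposite strand with a mean of 72.5 RPKM (reads per kilobase of listed length and library total) over all libraries, against 10.7 RPKM for Tspan31. No source used here states whether counting used the strand, so reads of the shared bases cannot be assigned with certainty. Cdk4 averaged 257 CPM in KO and 264 CPM in WT cells at stage II, 301 CPM in KO and 218 CPM in WT cells at stage III, and 204 CPM in KO and 178 CPM in WT cells at stage IV.

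Parm1 encodes a mucin-like membrane protein first described in the rat prostate. It had 1.5, 1.24 and 1.44 CPM in KO stage II libraries, against 2.87, 0.766 and 0.676 CPM in WT stage II libraries. Stage III levels were 4.27, 8.31 and 15.3 CPM in KO libraries, against 3.48, 1.33 and 0.978 CPM in WT libraries. Stage IV levels were 51.8, 60.7 and 58.8 CPM in KO libraries, against 14.4, 12.2 and 7.93 CPM in WT libraries. The genotypes overlapped at stage II, and Parm1 was the member whose level was highest at stage IV in both genotypes. In KO its log2 fold change was -0.048 ± 0.58 at stage II, 2.29 ± 0.52 at stage III and 2.31 ± 0.49 at stage IV. WT replicate 1 was the highest WT library at each stage, and it is the WT library with Xist at every stage. With the KO and WT libraries numbered 1 alone, a comparison added for every member after the values were seen, the log2 fold change was -0.90 at stage II, 0.29 at stage III and 1.84 at stage IV, with no test. The Xist covariate gave 1.81 at stage IV.

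Nebl encodes nebulette, an actin-binding protein of the nebulin family known from the Z-discs of heart muscle; the gene also gives a shorter LIM-domain form found outside muscle. It had 36.7, 43.8 and 48.1 CPM in KO stage II libraries, against 13.0, 13.9 and 20.2 CPM in WT stage II libraries. For stage III the levels were 56.1, 65.2 and 44.7 CPM in KO libraries, against 12.1, 11.1 and 13.4 CPM in WT libraries. For stage IV the levels were 30.3, 24.7 and 37.1 CPM in KO libraries, against 11.1, 8.80 and 9.02 CPM in WT libraries. All 9 KO libraries of the 3 stages lay above all 9 WT libraries, with no overlap between the genotypes at any pair of stages. KO over WT, the log2 fold change was 1.45 ± 0.20 at stage II, 2.18 ± 0.20 at stage III and 1.67 ± 0.20 at stage IV. Counts are summed over the whole gene, so the forms of nebulette cannot be told apart here.

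Rmnd5b encodes a RING-domain subunit of the CTLH complex, a ubiquitin ligase that in yeast marks gluconeogenic enzymes for degradation. It had 86.7, 77.1 and 91.1 CPM in KO stage II libraries, against 51.3, 49.3 and 50.1 CPM in WT stage II libraries. The stage III values were 124, 86.0 and 132 CPM in KO libraries, against 52.4, 47.9 and 49.1 CPM in WT libraries. The stage IV values were 108, 98.0 and 93.6 CPM in KO libraries, against 63.1, 60.6 and 59.8 CPM in WT libraries. All 9 KO libraries were again above all 9 WT libraries, and the coefficient of variation among WT libraries was 2.06% at stage II, 4.65% at stage III and 2.84% at stage IV. Relative to WT, its log2 fold change was 0.76 ± 0.13 at stage II, 1.19 ± 0.14 at stage III and 0.70 ± 0.13 at stage IV. The stage III value moved to 0.78 without KO replicates 1 and 3, close to its value at the other two stages. Rmnd5b overlaps Nhp2 by 44 exon bases, and Nhp2 averaged 77.6 CPM in KO and 87.4 CPM in WT cells at stage II, 110 CPM in KO and 72.2 CPM in WT cells at stage III, and 57.4 CPM in KO and 56.2 CPM in WT cells at stage IV.

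Camk4 encodes calcium/calmodulin-dependent protein kinase IV, a kinase of the nucleus that phosphorylates CREB and is known from T cells and neurons. It had 36.7, 36.2 and 39.0 CPM in KO stage II libraries, against 19.9, 10.1 and 14.2 CPM in WT stage II libraries. Levels at stage III were 4.16, 2.89 and 2.36 CPM in KO libraries, against 2.05, 1.69 and 1.20 CPM in WT libraries. Levels at stage IV were 1.43, 1.62 and 2.83 CPM in KO libraries, against 1.97, 1.42 and 1.55 CPM in WT libraries. Camk4 was the only member whose log2 fold change was smaller at each later stage, with 1.34 ± 0.28 at stage II, 0.93 ± 0.31 at stage III and 0.26 ± 0.32 at stage IV, and the genotypes overlapped at stage IV. Its within-group spread at stage II was narrow in KO (coefficient of variation 3.93%) and wide in WT (33.6%). Since Camk4 is known from T cells, their 14 markers are given beside it: all were matched, and they summed to 1044 to 1192 CPM in KO stage II libraries, against 998 to 1261 CPM in WT stage II libraries. Most of that sum came from Trbc1, Trbc2 and Lef1. At stage II Cd3e averaged 9.70 CPM in KO and 29.2 CPM in WT cells, and Cd3d 43.7 CPM in KO and 127 CPM in WT cells. Cd4, Cd8a and Cd8b1 each averaged at or under 0.52 CPM in both. Of 12 tested T cell markers, Cd3d alone fell at stage II (0.996% of all genes tested) and Cd3g alone rose at stage III (5.16% of all genes tested). The median log2 fold change of the 12 was -0.52 at stage II and 0.49 at stage III.

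**Figure D2:**
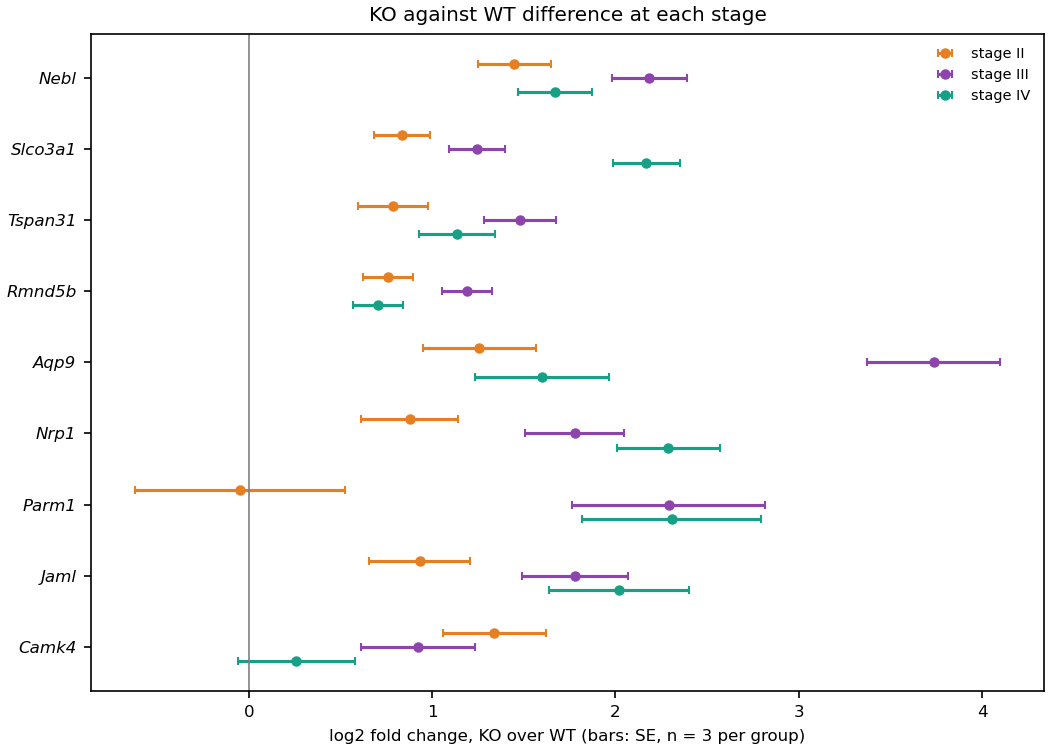
Log2 fold change of KO over WT for each gene at stage II (orange), stage III (purple) and stage IV (green) from edgeR's model; bars are standard errors, with 3 libraries per group. Aqp9 at stage III (3.74) stands farthest to the right, Camk4 declines to 0.26 at stage IV, and Parm1 at stage II (-0.048) lies at 0.

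Compared per unit of length with the authors' deposited RPKM, the 9 genes covered a wide range of levels in KO stage II cells. Rmnd5b was the highest with a mean of 41.5 ± 3.67 RPKM (SD, n = 3), and Parm1 the lowest with 0.290 ± 0.031 RPKM. Tspan31 averaged 26.0 ± 1.55 RPKM and Jaml 24.4 ± 2.21 RPKM in those cells, which did not differ beyond their spread. Aqp9 averaged 10.8 ± 1.39 RPKM, Slco3a1 4.49 ± 0.15 RPKM, Camk4 3.19 ± 0.12 RPKM, Nebl 2.96 ± 0.36 RPKM and Nrp1 1.71 ± 0.41 RPKM. In KO stage IV cells the order was headed by Rmnd5b (46.7 ± 3.19 RPKM) and Parm1 (11.4 ± 0.92 RPKM), and Camk4 was the lowest (0.162 ± 0.067 RPKM).

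The normal course of the 9 genes during maturation was tested within WT cells. That comparison was not the one used to choose the genes, but it is not independent of the choice. A low level in WT stage III or IV libraries made a gene easier to take, and the same libraries are compared here with WT stage II. Of the 9 genes, 7 were lower at stage IV than at stage II by edgeR's quasi-likelihood test with Benjamini-Hochberg adjustment over 14156 genes, against 9.82% of all genes tested. Parm1 alone was higher (5.26% of all genes tested), and Rmnd5b did not pass the test. The median log2 fold change of the 9 genes was -2.87, against -0.017 for all genes tested. Some marker lists of other cells were lower over the same step: 14 of 14 tested ILC1 markers fell (median -4.43), 9 of 12 tested T cell markers (median -3.01), 4 of 8 tested dendritic cell markers (median -3.20) and 3 of 7 tested B cell markers (median -1.77). Fewer fell in the neutrophil list (1 of 7, median -1.44) and the ILC2 and ILC3 list (1 of 4, median -2.06). In the monocyte and macrophage list 0 of 9 fell (median 0.22), and in the erythroid and platelet list 0 of 8 (median 0.34). The part of these lists in the change of the 9 genes was not tested. Jaml had the largest change and fell by 5.76 ± 0.37 on the log2 scale (adjusted p = 1.9e-08). Slco3a1 fell by 4.29 ± 0.19 (adjusted p = 6.8e-10), and Aqp9 fell by 3.87 ± 0.37 (adjusted p = 1.3e-06). Camk4 fell by 3.16 ± 0.31 (adjusted p = 2.1e-06), and Tspan31 fell by 2.87 ± 0.21 (adjusted p = 7.1e-08). For these 5 genes every WT stage IV library was below every WT stage II library by a wide margin. Nrp1 fell by 1.37 ± 0.28 (adjusted p = 0.00282), and Nebl fell by 0.71 ± 0.20 (adjusted p = 0.0247). The Nebl call was lost without WT stage II replicate 3 (-0.48, adjusted p = 0.144), without WT stage IV replicate 2 (adjusted p = 0.0995) and without WT stage IV replicate 3 (adjusted p = 0.0896). Parm1 was higher at stage IV by 3.00 ± 0.54 (adjusted p = 0.00103). Rmnd5b had a log2 fold change of 0.28 ± 0.13 (adjusted p = 0.181); the call was made by voom with sample weights (adjusted p = 0.00696), with only the WT libraries compared (adjusted p = 0.0344), without KO stage III replicates 1 and 3 (adjusted p = 0.0174) and without KO stage III replicate 2 (adjusted p = 0.0319).

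The step at which the genes changed in WT cells differed from gene to gene. Between stage III and stage II, 5 of the 9 were lower (1.98% of all genes tested) and 0 were higher (0.989% of all genes tested). Aqp9 and Camk4 made nearly their whole change at this step, with -3.83 ± 0.36 (adjusted p = 5.6e-06) and -3.16 ± 0.31 (adjusted p = 9.3e-06). Jaml fell by 2.44 ± 0.29 (adjusted p = 7.8e-05), Tspan31 fell by 1.56 ± 0.20 (adjusted p = 0.000123) and Slco3a1 fell by 0.89 ± 0.15 (adjusted p = 0.00237). The remaining 4 genes had log2 fold changes between -0.37 (Nebl, adjusted p = 0.573) and 0.40 (Parm1, adjusted p = 0.953). Between stage IV and stage III, 4 of the 9 were lower (2.41% of all genes tested) and Parm1 was higher (0.763% of all genes tested). Slco3a1 fell by 3.40 ± 0.18 (adjusted p = 2.2e-08) and Jaml fell by 3.32 ± 0.37 (adjusted p = 3.7e-05) at this later step, and Tspan31 fell by 1.31 ± 0.21 (adjusted p = 0.00103). Nrp1 fell by 1.27 ± 0.28 (adjusted p = 0.0163), a call lost without WT stage III replicate 1 (adjusted p = 0.0851), without WT stage IV replicate 2 (adjusted p = 0.0751) and without WT stage IV replicate 3 (adjusted p = 0.0974). Parm1 was higher by 2.60 ± 0.53 (adjusted p = 0.00873), a call lost without WT stage III replicate 2 (adjusted p = 0.0675) and without WT stage III replicate 3 (adjusted p = 0.0585). Aqp9 and Camk4 had values at 0 within their error, -0.035 ± 0.38 and 0.004 ± 0.32 (neither passed).

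Within KO cells the change from stage II to stage IV had the same sign as in WT cells for 8 of the 9 genes, with the exception of Nrp1, and these values are a description because the KO libraries chose the genes. The log2 fold change of stage IV over stage II was -4.67 ± 0.33 in KO and -5.76 ± 0.37 in WT for Jaml, and -2.96 ± 0.16 in KO and -4.29 ± 0.19 in WT for Slco3a1. For Aqp9 it was -3.53 ± 0.34 in KO and -3.87 ± 0.37 in WT, and for Tspan31 -2.52 ± 0.20 in KO and -2.87 ± 0.21 in WT. Camk4 had the steeper drop in KO, -4.24 ± 0.32, against -3.16 ± 0.31 in WT, and Parm1 the steeper gain, 5.35 ± 0.58 in KO, against 3.00 ± 0.54 in WT. Nrp1 was level in KO cells (0.038 ± 0.26), against -1.37 ± 0.28 in WT cells. Nebl had -0.48 ± 0.19 in KO and -0.71 ± 0.20 in WT, and Rmnd5b 0.23 ± 0.13 in KO and 0.28 ± 0.13 in WT. The difference of the KO over WT fold changes between stage IV and stage II was 1.33 ± 0.24 for Slco3a1, 1.41 ± 0.38 for Nrp1, 2.35 ± 0.75 for Parm1, 1.09 ± 0.47 for Jaml and -1.08 ± 0.42 for Camk4, on the log2 scale and without a test. At the step to stage III, Aqp9 had -1.35 ± 0.31 in KO, against -3.83 ± 0.36 in WT, and at the step to stage IV -2.17 ± 0.33 in KO, against -0.035 ± 0.38 in WT.

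**Figure D3:**
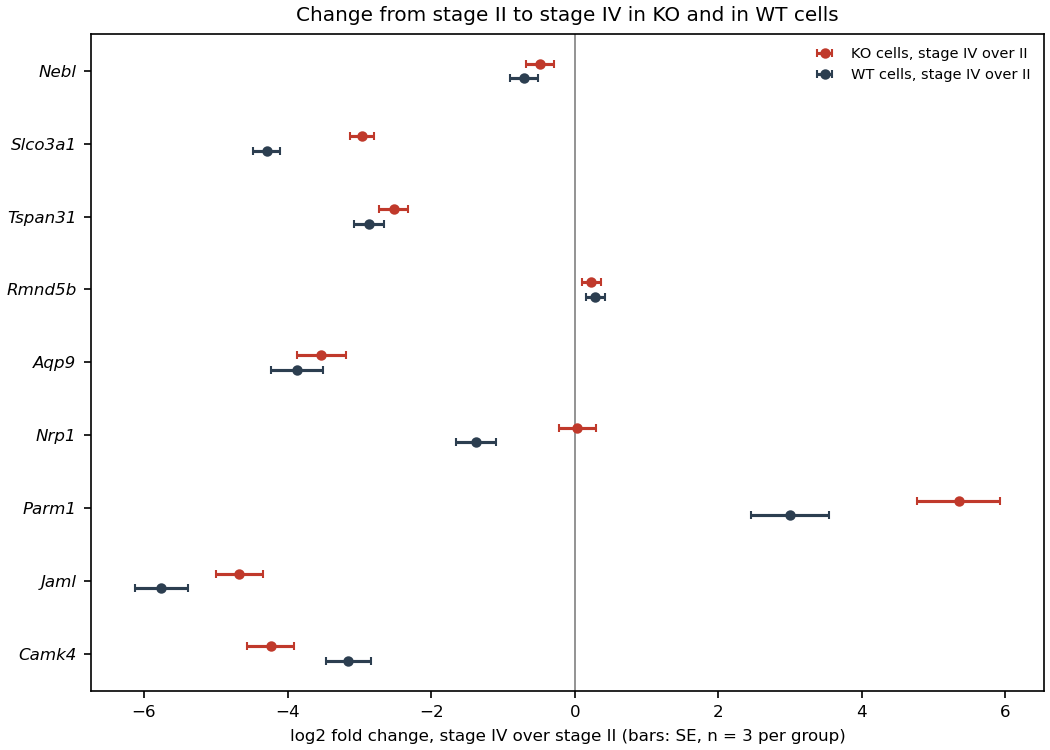
Log2 fold change of stage IV over stage II within KO cells (red, upper) and within WT cells (dark, lower) for each gene; bars are standard errors, with 3 libraries per group. Jaml, Slco3a1, Aqp9, Camk4 and Tspan31 lie far below 0 in both genotypes, Parm1 far above it (5.35 in KO and 3.00 in WT), and Nrp1 lies at 0.038 in KO and -1.37 in WT.

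Relatives and partners of the 9 genes were looked at in 9 family lists, chosen with earlier results of these data known. Few passed the KO against WT test. Among the aquaporins other than Aqp9, 2 of 11 were tested, and Aqp11, an aquaporin of intracellular membranes, rose in KO at stage III (1.43 ± 0.22, edgeR adjusted p = 0.00166) and stage IV (1.48 ± 0.22, adjusted p = 0.00254). Of all genes tested, 0.466%, 5.16% and 0.240% rose at stages II, III and IV, the background for the counts of this paragraph. Calls at stage III depended on the fit. With only the libraries compared, 9 of all genes tested rose and 1 fell at that stage, and the family calls are not given for that fit. Among the organic anion transporters other than Slco3a1, 4 of 14 were tested and Slco4a1 rose at stage III (1.02 ± 0.23, adjusted p = 0.0184). Of 22 tested tetraspanins other than Tspan31, 1 rose at stage II, 3 at stage III and 1 at stage IV, and 0 fell (0.996%, 2.75% and 0.268% of all genes tested); the median log2 fold change was -0.063, 0.17 and -0.080. Tspan4 averaged 23.1 CPM in KO and 7.49 CPM in WT cells at stage III (log2 fold change 1.63 ± 0.23, adjusted p = 0.000883), and it also rose at stage IV (1.23 ± 0.24, adjusted p = 0.0271). Cd63, a tetraspanin of lysosomes and granules, rose at stage III (3.20 ± 0.63, adjusted p = 0.00845) from a low level, 2.76 CPM in KO and 0.296 CPM in WT cells. Tspan14, which helps bring the protease ADAM10 to the surface, rose at stage II (0.53 ± 0.11, adjusted p = 0.0139). Without KO stage III replicates 1 and 3, which leaves 1 KO library with no spread of its own and so no call is read, the stage III values were 1.31 for Aqp11, 1.4 for Tspan4, 4.19 for Cd63 and 1.09 for Slco4a1. Leaving out single libraries ended the call of Slco4a1 without KO stage III replicate 3, WT stage III replicate 1 or WT stage III replicate 2, that of Cd63 without WT stage III replicate 3, that of Tspan4 at stage IV without any 1 KO stage IV library or WT stage IV replicate 2 or 3, and that of Tspan14 without KO stage II replicate 1 or 2 or WT stage II replicate 2 or 3.

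Among 23 tested semaphorins, plexins and other relatives and partners of Nrp1, 0 rose and 3 calls in the other direction were made, where 0.996%, 2.75% and 0.268% of all genes tested fell at stages II, III and IV. Plxnc1, a receptor for semaphorin 7A, fell at stage II (-0.69 ± 0.12, edgeR adjusted p = 0.0032) and stage III (-0.56 ± 0.12, adjusted p = 0.0119), and Sema4a fell at stage III (-0.65 ± 0.15, adjusted p = 0.0184). Of 22 tested calcium and calmodulin genes other than Camk4, 0 passed at stages II and IV (1 and 3 at an unadjusted p under 0.05). At stage III the calmodulin kinase gene Pnck rose (1.39 ± 0.28, adjusted p = 0.0114), while Nfatc2, a calcineurin-dependent transcription factor, fell (-1.20 ± 0.22, adjusted p = 0.00549) and Camk2b fell (-1.30 ± 0.31, adjusted p = 0.024). Spn, the leukocyte sialomucin CD43, fell at stage III (-0.63 ± 0.12, adjusted p = 0.00789) and was the only one of 7 tested sialomucins other than Parm1 to pass at any stage. With KO replicate 2 as the lone KO stage III library, the stage III values, with no call read, were -0.75 for Spn, -0.53 for Plxnc1, -0.30 for Sema4a, -0.67 for Nfatc2, 0.51 for Pnck and -1.04 for Camk2b. With only the libraries compared, 1 of all genes tested fell at stage III, so the falls named here at that stage cannot all hold in that fit. Sema4a and Camk2b lost their call without KO stage III replicate 1 or 3 alone or without any 1 WT stage III library, Pnck without WT stage III replicate 2 or 3, and Plxnc1 at stage III without WT stage III replicate 2. In the CTLH complex, 0 of the 10 subunit genes other than Rmnd5b passed in edgeR's test at any stage, with 0, 2 and 0 at an unadjusted p under 0.05. The same held for 3 tested nebulin relatives (0 at each stage unadjusted) and for 4 tested members of the junctional adhesion family (0, 1 and 0 unadjusted).

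Genes with the most similar profile were ranked by Pearson's correlation of log2 CPM over the 18 libraries, which share genotype and stage, so the values describe likeness only. S100a4 (r = 0.943) and Ptpn6 (0.911) were most like Nebl, and Ptpn6 (0.900) and 1700048O20Rik (0.885) most like Nrp1. Socs2 (0.970) and Rnf144a (0.967) followed Slco3a1, Tmem154 (0.984) and Tnfsf8 (0.983) followed Tspan31, and Slc9a3r1 (0.912) and R3hdm4 (0.912) followed Rmnd5b. The nearest genes to Aqp9 were Tubb6 (0.949) and Serpinb1a (0.943), and those to Parm1 were Selenon (0.920) and Nhsl2 (0.919). Cd160 (0.969) and Lta (0.964) were nearest to Jaml, and Cd200r1 (0.977) and Ckb (0.974) to Camk4. The mean profile of the 9 genes was closest to Tspan4 (0.955), Crybg2 (0.947), Hopxos (0.932), 1700048O20Rik (0.920) and Zfp683 (0.917), the last being the gene of the transcription factor Hobit. Among the members, Nebl and Nrp1 correlated with r = 0.902 and Slco3a1 and Tspan31 with r = 0.933, while Nebl and Parm1 had r = 0.129. The deviations of libraries from their group mean gave other values: 0.357 for Nebl with Nrp1 and -0.483 for Slco3a1 with Tspan31.

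The nearest annotated genes on the chromosome were read beside the 9 genes. Those of Slco3a1 (Gm7580, St8sia2 and Sv2b) averaged at or under 0.562 CPM in every group. Next to Jaml, Mpzl3 averaged 10.5 CPM in KO and 8.96 CPM in WT cells at stage II and 3.97 CPM in KO and 3.75 CPM in WT cells at stage IV. Beside Camk4, Wdr36 averaged 70.3 CPM in KO and 68.9 CPM in WT cells at stage II. Rchy1, beside Parm1, averaged 161 CPM in KO and 139 CPM in WT cells at stage II, 208 CPM in KO and 149 CPM in WT cells at stage III, and 128 CPM in KO and 142 CPM in WT cells at stage IV. Itgb1, the integrin beta 1 gene beside Nrp1, averaged 642 CPM in KO and 400 CPM in WT cells at stage III and 591 CPM in KO and 396 CPM in WT cells at stage IV. Plxdc2, beside Nebl, averaged 3.13 CPM in KO and 1.37 CPM in WT cells at stage II and was at or under 0.51 CPM elsewhere.

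Markers of related and other cells moved with the genotype in part. The 14 ILC1 markers, all matched, summed to 3335 to 3912 CPM in KO stage II libraries, against 2201 to 2381 CPM in WT stage II libraries. At stage III they summed to 1002 to 1333 CPM in KO libraries, against 519 to 1248 CPM in WT libraries, and at stage IV to 214 to 462 CPM in KO libraries, against 106 to 422 CPM in WT libraries. Most of the sum at these later stages was Xcl1, which passed at no stage. Xcl1 averaged 897 CPM in KO and 855 CPM in WT cells at stage III, and 222 CPM in KO and 261.5 CPM in WT cells at stage IV. Of these markers, 5 rose in KO at stage II, 10 at stage III and 2 at stage IV in edgeR's test, against 0.466%, 5.16% and 0.240% of all genes tested. Within WT cells 14 of 14 were lower at stage IV than at stage II, against 9.82%. The list was chosen with earlier results of these data known, so these counts are not independent of the data. With only the libraries compared, 9 of the 14156 genes tested rose in KO at stage III, Nebl among them. The 10 ILC1 calls at stage III thus cannot all hold in that fit. None of the 14 ILC1 markers was at 0 in a whole group. The 9 dendritic cell markers summed to 709 to 828 CPM in KO stage II libraries, against 478 to 655 CPM in WT stage II libraries, and to 57.8 to 295 CPM in KO stage III libraries, against 24.7 to 47.3 CPM in WT stage III libraries, highest in KO replicate 2, with Clec9a at 0 in WT stage III. Most of the stage II sum was Cd74, which averaged 670 CPM in KO and 473 CPM in WT cells. At stage II 0 of 8 tested dendritic cell markers passed (median log2 fold change 0.066). Those that passed at stage III were H2-Aa (2.44) and Cd74 (2.10). The 12 monocyte and macrophage markers summed to 1.65 to 77.5 CPM in KO stage III libraries, against 1.87 to 12.9 CPM in WT stage III libraries, again highest in KO replicate 2, with Marco at 0 in WT stage III. The 10 B cell markers summed to 1098 to 1327 CPM in KO stage II libraries, against 975 to 1013 CPM in WT stage II libraries, and to 765 to 1409 CPM in KO stage III libraries, against 680 to 753 CPM in WT stage III libraries. Most of the B cell sum was Ighm, which averaged 1142 CPM in KO and 925 CPM in WT cells at stage II. Of the B cell markers, only Cd79b passed, at stage II (log2 fold change 1.16) and at stage III (1.73). The median of the 7 tested B cell markers was -1.19 at stage II. Ighm (0.30) lay above 0 there beside Cd79b, while Cd79a (-1.19), Ms4a1 (-2.26), Cd22 (-0.46), Ebf1 (-3.91) and Fcer2a (-2.53) lay below it. Pax5 was at 0 in KO stage II and WT stage III. The 9 erythroid and platelet markers summed to 11.1 to 19.8 CPM in KO stage III libraries, against 4.51 to 6.87 CPM in WT stage III libraries. The NK cell markers had no count of 0 in any group, and 0 of 9 rose in KO at any stage while 1 fell at stage II and 1 at stage III. In bulk RNA of a sorted population, a change in the share of cells that hold a transcript and a change in RNA per cell cannot be told apart. The part of these marker differences in the levels of the 9 genes was not tested.

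**Figure D4:**
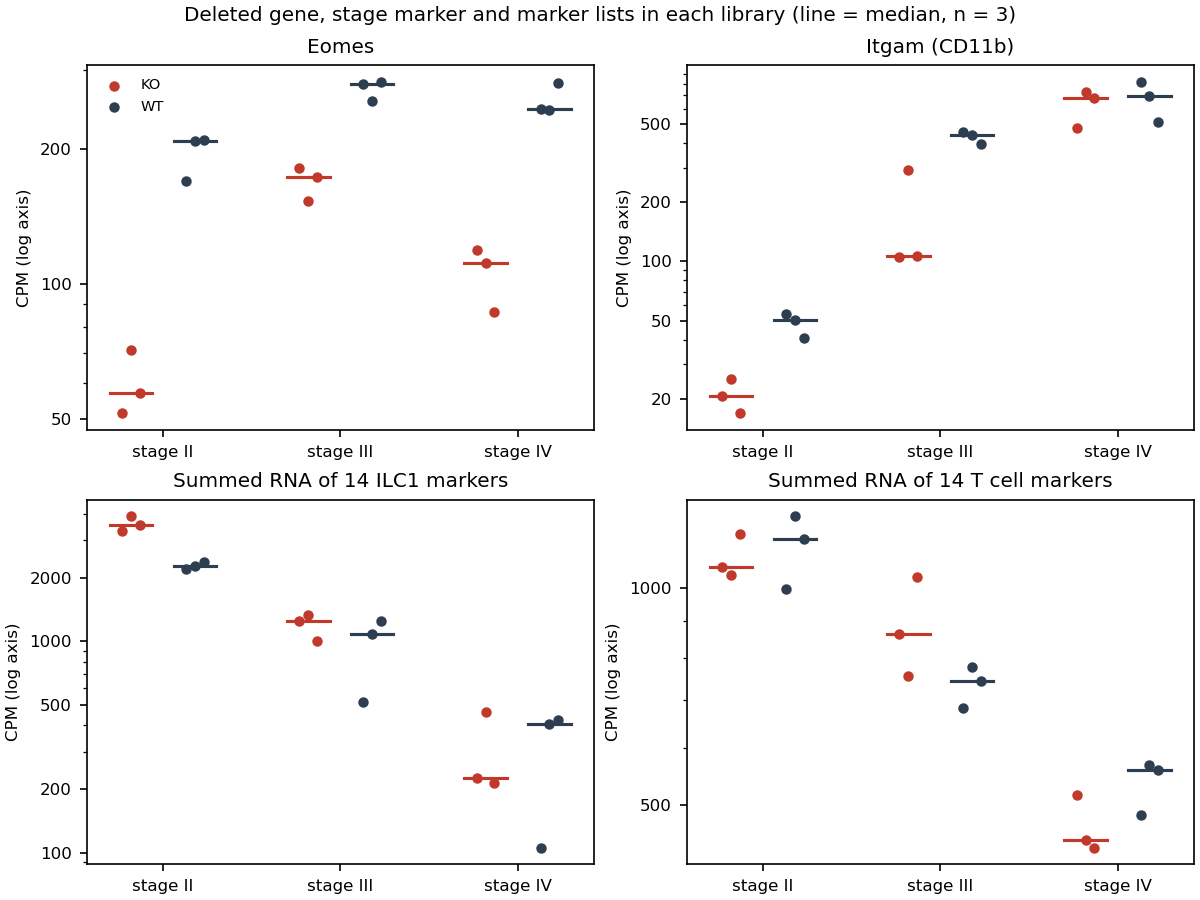
Eomes, Itgam (which encodes CD11b) and the summed RNA of the ILC1 and T cell marker lists in each library, in TMM-scaled CPM on log axes, with KO (red) left of WT (dark); points are libraries and lines are medians of 3. Eomes is lower in all KO libraries, Itgam is lower in KO at stage II and stage III, where KO replicate 2 (293 CPM) is nearest to WT, and the ILC1 sum is higher in KO at stage II.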

How the data were processed

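Per the submitters' processing notes, reads were processed by the authors with STAR 2.0.4 and featureCounts 1.4.5 of the Subread package; no source used here names the build, the read type or the strand setting. Raw counts, CPM and RPKM of 41388 Ensembl genes were deposited, per the file headers. The authors' CPM is the count rescaled by the library's total, and the authors' RPKM divides that CPM by the listed gene length. Listed positions fall on GRCm38 (GENCODE M21), which supplied symbols for 40254 IDs. Total counts ran from 18684350 to 28365837. PCR copies cannot be told from molecules.

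The counts were scaled by TMM, filtered by edgeR's filter by group (14156 genes left) and fitted in all 18 libraries with edgeR 4.0.16 (quasi-likelihood, 1 mean per group, R 4.3.3), with Benjamini-Hochberg adjustment over all genes tested and a call at an adjusted p under 0.05. An SE is the log2 fold change over the root of F. RPKM were used only to compare levels between genes. The script was tested on simulated data. Libraries of a group all differed by more than sampling noise. The members and gene lists were chosen with earlier results of these data known. Named besides the 9 genes were Eomes, Cd27 and Itgam, up to 3 called genes per family list, the 2 genes most correlated with each member and the 5 with their mean, and neighbouring or overlapping genes. Cd27 was lower in KO at stage IV (-0.92 ± 0.18, adjusted p = 0.0329). No library was dropped or imputed. Promoters are from RefSeq on GRCm38.p6. Alternatives were DESeq2 1.42.0, limma 3.58.1 (voom with sample weights), 2 other scalings, 2 other filters, a fit of the compared libraries alone, a replicate block, an Xist covariate, leaving out each library, and leaving out KO stage III replicates 1 and 3.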

Additional observations from a re-analysis of the deposited data

How the results depend on the processing

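For KO against WT, 750 of 756 values of the 9 genes moved by less than the replicate spread, and 0 called values changed sign. Per value, 18 settings left out a single library, often of a group not compared, and 10 were of other kinds. Leaving out 1 library can hardly move a value that far, so the count says little about robustness. The exceptions were Tspan31 (0.54) and Aqp9 (1.53) at stage II and Parm1 (1.81) at stage IV with an Xist covariate, Nebl (2.41) and Rmnd5b (0.78) at stage III without KO stage III replicates 1 and 3, and Parm1 at stage II without WT stage II replicate 1 (0.95). Apart from these settings, the KO and WT libraries numbered 1 were compared alone, with no test. There 14 of 27 values moved beyond the replicate spread and 0 called values changed sign. Among those that moved were Aqp9 at stage III (5.16), Jaml at stage IV (1.30), Nrp1 at stage II (0.49) and Camk4 at stage IV (-0.44). Within WT cells, 718 of 756 values kept direction and call.

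Values near 0 changed sign. Camk4 at WT stage IV against III was -0.00099 with size factor scaling, -0.00515 with upper-quartile scaling, -0.00079 with DESeq2, -0.0143 with voom, -0.0051 with a filter of 50 counts, -0.0051 with the replicate block and -0.0237 with Xist, and ran from -0.19 to 0.18 leaving out single libraries. Rmnd5b at WT stage III against II was 0.0205 without a filter and 0.0016 without KO stage III replicates 1 and 3, and ran from -0.050 to 0.0153 leaving out single libraries. That range was -0.26 to 0.025 for Nrp1 and -0.32 to 1.39 for Parm1 at WT stage III against II, and -0.33 to 0.30 for Aqp9 at WT stage IV against III.

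Counts of called genes, which set the background shares, moved more, and the cause was not tested. KO against WT at stage II called 207 genes, and 367 with DESeq2, 623 unfiltered, 328 with the compared libraries alone, 1061 with voom and 521 without KO stage III replicates 1 and 3. At stage III it called 1119, and 2271, 1941, 10, 730 and 184 in that order, the last with 1 KO library assumed to vary like the other groups. At stage IV it called 72, and 154 with DESeq2, 323 unfiltered, 358 with voom and 183 without both libraries. WT stage III against II called 420, and 684 with DESeq2, 734 unfiltered, 912 with the compared libraries alone, 1830 with voom and 1007 without both libraries. WT stage IV against II called 2135, and 3588 with the compared libraries alone, 5155 with voom and 3977 without both libraries. WT stage IV against III called 449, and 752 with DESeq2, 1417 with the compared libraries alone, 2526 with voom and 1151 without both libraries. Leaving out single libraries gave 109 to 339 for KO against WT at stage II, 157 to 5320 at stage III (5320 without KO stage III replicate 2 and 157 without WT stage III replicate 3) and 30 to 119 at stage IV. It gave 226 to 683 for WT stage III against II, 1428 to 2933 for IV against II and 256 to 751 for IV against III.

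Same-numbered KO and WT libraries deviated with correlations of -0.0994 to 0.167, and differently numbered ones with -0.181 to 0.107. The labels name nothing that libraries of a number share, so the replicate numbers were not taken as pairs. Whether a number stands for a shared batch was not tested. With the number as a replicate block, KO against WT called 260, 1770 and 89 genes at stages II, III and IV. Depth limits Jaml at WT stage IV (8 to 16 counts) and Aqp9 at WT stages III and IV (14 to 48 counts).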
